A study of Homo sapiens with 6 samples.

Results

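The genes described here encode growth factor receptor tyrosine kinases, cell-surface receptors that have been linked to the way cancer cells adapt to inhibition of the kinases CDK4 and CDK6. The rule named 10 of them: EGFR, ERBB2, ERBB3, ERBB4, MET, FGFR1, FGFR2, FGFR3, EPHA2 and DDR1. A member was taken from the transcript cluster (all probes of one transcribed locus on the array) that carried its symbol alone, and 8 of the 10 had such a cluster, among 22375 genes tested. The clusters of ERBB2 and DDR1 each carry a microRNA symbol as well, so neither gene was assigned a value, and these clusters are given only among the closing observations. The cells were PC3-ML, a line selected from PC-3 human prostate carcinoma cells for metastatic behaviour, grown in DMEM with serum. Of 6 microarrays of total RNA, 3 came from cells given the DMSO vehicle and 3 from cells given 500 nM PD 0332991 in DMSO, in each case for 24 h. PD 0332991 (palbociclib) blocks CDK4 and CDK6, and the series title speaks of switching the retinoblastoma protein, pRB, back on, so that the question is how transcripts respond. PC3-ML is a single cell line. Nothing in the labels tells whether the replicates were grown separately, so the p-values reflect the scatter among these arrays alone, and that scatter may be technical.

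A receptor tyrosine kinase binds a growth factor outside the cell, pairs with a second receptor and phosphorylates tyrosines on its partner's tail. Adaptor proteins dock there and start RAS and ERK signalling and phosphoinositide 3-kinase signalling, which raise D-type cyclins and so feed into CDK4 and CDK6. Ubiquitin ligases, phosphatases and feedback inhibitors end the signal. The arrays measure transcripts, not receptor protein or phosphorylation.

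All values are log2 expression as the authors deposited it, and a change is the PD 0332991 mean minus the DMSO mean. Array medians over all clusters lay between 4.48 and 4.56, and correlations across genes, which are not independent replicates, were 0.9977 to 0.9985 within groups and 0.9938 to 0.9948 between them. With limma, 2531 genes had an adjusted p under 0.05, of which 49.3% were higher. Centring each array on its median left 2023 genes, 37.5% of them higher. All 7 division genes on a check list fell, against 5.74% of all genes. The proliferation marker MKI67 went from 12.28 ± 0.016 to 7.80 ± 0.073 (mean ± SD, n = 3). All 8 epithelial markers lay above the median level of the genes tested, 5.35, and 5 of them rose (62.5%, against 5.57% of all genes). CLDN1 rose by 0.57, JUP by 0.35, KRT19 by 0.41, KRT7 by 0.30 and KRT8 by 0.31. KRT8 did not pass once DMSO 1 or 3, or PD 0332991 replicate 1 or 2, was left out (adjusted p up to 0.134). List means of the epithelial markers were 8.70 to 8.76 on the DMSO arrays and 8.972 to 9.002 on the PD 0332991 arrays; their part in the receptor values was not tested. Of 7 fibroblast markers, 8 endothelial markers and 9 leukocyte markers measured, 1 in each list lay above that median, PDGFRA, KDR and CD68 (picked out after their values were seen). The defining markers PTPRC, PECAM1 and DCN had DMSO means of 3.85, 4.04 and 4.30. Of these 3 lists CD68 alone passed the threshold (0.28, adjusted p = 0.0302), and it did not pass once DMSO 2 or 3, or PD 0332991 replicate 2 or 3, was left out (adjusted p up to 0.0967). Having 3 arrays in a group limits the precision of every value.

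Array signals of the 8 receptors changed little after a day of CDK4 and CDK6 inhibition. FGFR1 fell, to a level 1.14-fold lower, and the other 7 did not pass the threshold. That is 1 of 8 (12.5%), against 11.3% of all genes tested, and for lower calls alone 1 of 8 against 5.74%. No receptor passed as higher by limma, against 5.57% of all genes; at an unadjusted p under 0.05, 1 receptor was higher (ERBB4) and 2 were lower (FGFR1 and EGFR), which is 37.5% of the 8 against 24.0% of all genes. The DMSO and PD 0332991 arrays did not overlap for 3 of the 8 receptors (37.5%), against 29.9% of all genes tested, so both shares lie near the background. The median change of the 8 was 0.01 and that of all genes 0.02. The 95% intervals of the 8 receptors reached from 1.22-fold lower, for FGFR1, to 1.16-fold higher, for ERBB4. None includes a change of array signal as large as 1.5-fold in either direction. ERBB3, ERBB4, FGFR2 and FGFR3 lay below the median level of the genes tested and their detection was not tested. For them the intervals may not bound the change of the transcript.

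**Figure D1:**
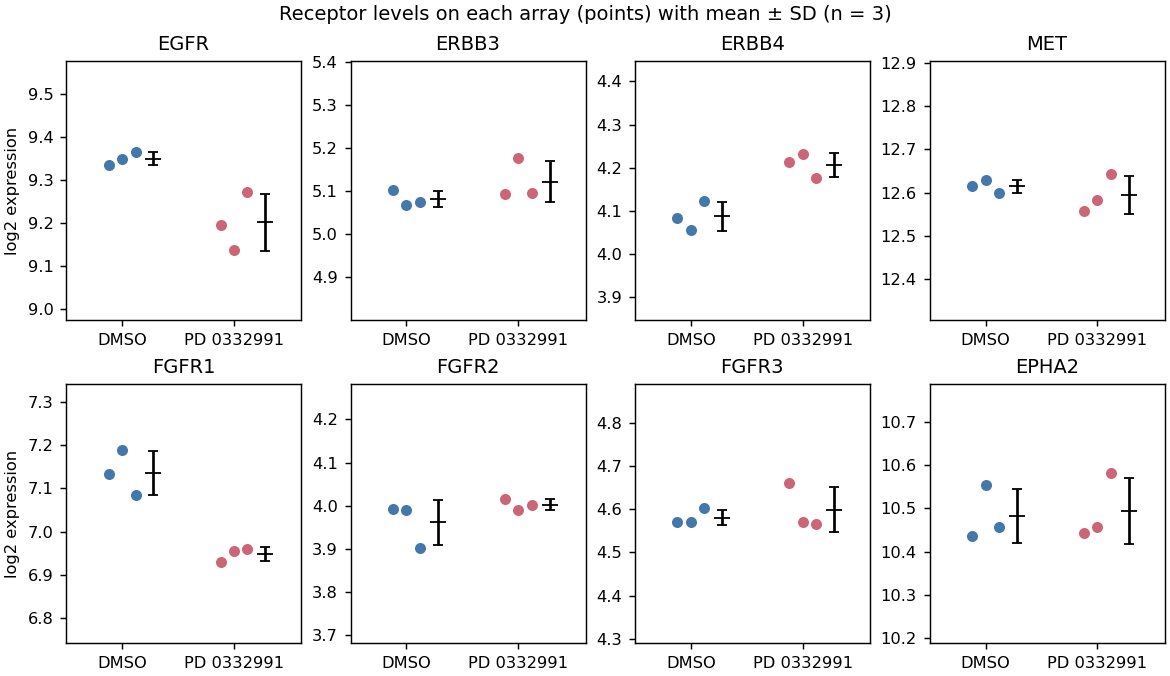
Log2 expression of each of the 8 receptors on the 3 DMSO arrays (blue) and the 3 PD 0332991 arrays (red), with the mean ± SD beside the points; each panel spans the same 0.6 log2 units around its own midpoint. The groups are separate for EGFR, ERBB4 and FGFR1 and overlap for the other 5.

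The ERBB family binds ligands of the epidermal growth factor type and signals as pairs of like or unlike members. EGFR, its founding member, stood at 9.33, 9.35 and 9.36 on the DMSO arrays and at 9.20, 9.14 and 9.27 on the PD 0332991 arrays. All 3 treated arrays were below all 3 controls, and PD 0332991 replicate 3 lay closest to them. The change of EGFR was -0.15 ± 0.048 (SE), 1.11-fold lower, with a 95% interval from -0.26 to -0.03 and an adjusted p = 0.108 by limma. ERBB4, a receptor for neuregulins, was at 4.08, 4.06 and 4.12 with DMSO and 4.21, 4.23 and 4.18 with PD 0332991. The treated arrays were the higher ones throughout, at levels below the median of the genes tested, and the change of 0.12 ± 0.042 had an adjusted p = 0.134. ERBB3, whose kinase domain is nearly inactive and which signals through its partners, had 5.10, 5.07 and 5.08 with DMSO and 5.09, 5.18 and 5.10 with PD 0332991. These groups overlapped, with PD 0332991 replicate 2 the highest array, and the change was 0.04 ± 0.043 (adjusted p = 0.658).

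MET is the receptor for hepatocyte growth factor and a known source of resistance to inhibitors of other receptors. Its DMSO values were 12.62, 12.63 and 12.60 and its PD 0332991 values 12.56, 12.58 and 12.64. The treated arrays lay on both sides of the controls, and the highest value was that of PD 0332991 replicate 3. The change was -0.02 ± 0.043, with a 95% interval from -0.12 to 0.08 (adjusted p = 0.850). EPHA2, an ephrin receptor that can also signal without its ligand in cancer cells, had 10.44, 10.56 and 10.46 with DMSO and 10.44, 10.46 and 10.58 with PD 0332991. In each group 1 array stood above the others, DMSO 2 and PD 0332991 replicate 3, and the change was 0.01 ± 0.057 (adjusted p = 0.942). The small changes of MET, EPHA2 and FGFR3 had no settled sign: with quantile normalization they were 0.05, 0.06 and -0.01, and with array medians centred -0.05, -0.02 and -0.01.

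The fibroblast growth factor receptors bind their ligands together with heparan sulfate. FGFR1 was at 7.13, 7.19 and 7.09 on the DMSO arrays and at 6.93, 6.95 and 6.96 on the PD 0332991 arrays. The treated values lay close together and all below the controls. The mean went from 7.14 ± 0.051 to 6.95 ± 0.017 (SD, n = 3), a change of -0.19 ± 0.044 (SE) with a 95% interval from -0.29 to -0.08 and an adjusted p = 0.0395. The direction held under every alternative, with changes from -0.22 to -0.16. The call did not hold: whichever array was left out, the adjusted p was between 0.0548 and 0.126. It was 0.0811 after quantile normalization and 0.211 when all 65535 clusters entered the fit and the adjustment. FGFR2 had 3.99, 3.99 and 3.90 with DMSO and 4.015, 3.990 and 4.001 with PD 0332991, and FGFR3 had 4.571, 4.570 and 4.602 with DMSO and 4.66, 4.57 and 4.57 with PD 0332991. Both overlapped between the groups, with changes of 0.04 ± 0.044 (adjusted p = 0.661) and 0.02 ± 0.045 (adjusted p = 0.863).

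**Figure D2:**
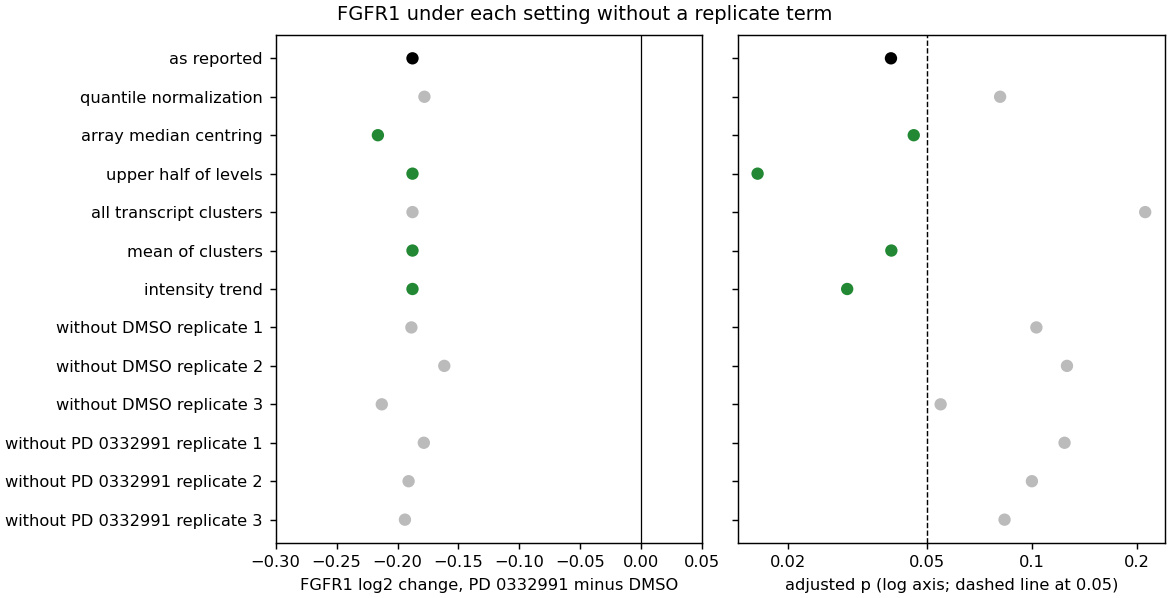
Left, the log2 change of FGFR1 as reported (black) and under 12 of the 13 alternatives (all but the replicate term); right, its adjusted p on a log axis with a dashed line at 0.05. Green points passed the threshold and grey points did not: the change stayed between -0.22 and -0.16 while the adjusted p moved from 0.0164 to 0.211.

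Of the 8 receptors, ERBB3, ERBB4, FGFR2 and FGFR3 had cluster values below the median of all genes tested, and EGFR, MET, FGFR1 and EPHA2 had values above it. Each gene is read by different probes and no detection call was used here, so the receptors are not ranked by level and whether the former 4 transcripts were detected was not tested.

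Whether 2 receptors moved alike was tested on the difference of the pair on each array, for 6 pairs within the ERBB or FGF receptor family and for EGFR with MET and with EPHA2, 8 pairs in all. Each of the 6 pairs within a family includes ERBB3, ERBB4, FGFR2 or FGFR3, which lay below the median level and whose detection was not tested. For these pairs the intervals may not bound a difference between the transcripts. With 3 against 3 arrays the two-sided exact permutation test cannot go below p = 0.1, and 7 pairs reached that value (adjusted over the 8 pairs, 0.114). The change of FGFR1 was 0.23 log2 units more negative than that of FGFR2 (95% interval of FGFR1 minus FGFR2, -0.29 to -0.16) and 0.21 more negative than that of FGFR3 (-0.36 to -0.05). EGFR minus ERBB4 came to -0.27 (-0.42 to -0.11), EGFR minus ERBB3 to -0.19 (-0.37 to -0.0078), EGFR minus EPHA2 to -0.16 (-0.28 to -0.04) and EGFR minus MET to -0.13 (-0.21 to -0.04). ERBB3 minus ERBB4 was -0.08 (-0.16 to -4.8e-05). FGFR2 and FGFR3 had a difference of 0.02 (-0.11 to 0.15, exact permutation p = 0.6).

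FGFR1 was the receptor past the threshold, and the genes whose 6 values ran most like its own were TFAP4, a helix-loop-helix transcription factor, and SCARA3, a scavenger receptor family member. Pearson correlations over the 6 arrays were 0.9971 and 0.9968. This is a description: 366 genes had a correlation with FGFR1 above 0.95, and genes that differ between the groups all share this contrast. TFAP4 fell by 0.34 and SCARA3 fell by 0.31 on the log2 scale. TFAP4 did not pass without PD 0332991 replicate 1 (adjusted p = 0.0553), and neither passed with all clusters in the fit and the adjustment (0.0794 and 0.0765).

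Beyond the 8 receptors, 46 of 48 other receptor tyrosine kinases were measured, and 5 passed the threshold (10.9%, against 11.3% of all genes), 3 higher and 2 lower. Their median change was 0.02, that of all genes. Some calls among receptors, ligands and partner genes named below held with all 65535 clusters in the fit and the adjustment. These were the calls of EPHA4, ROR1, SDC1, SDC4, NCSTN, SHC1, YES1 and LRIG3. EPHA4, an ephrin receptor, was at 7.01, 6.99 and 6.97 with DMSO and 7.363, 7.413 and 7.501 with PD 0332991. All treated arrays were higher, and EPHA4 rose by 0.44 ± 0.049 (SE), 1.35-fold (adjusted p = 0.00213). ROR1, a receptor for a WNT ligand, was at 9.61, 9.62 and 9.62 with DMSO and 10.01, 9.92 and 10.02 with PD 0332991. The controls were almost identical, and ROR1 rose by 0.37 ± 0.044, 1.29-fold (adjusted p = 0.0029). EPHB6, an ephrin receptor without kinase activity, rose by 0.25 (adjusted p = 0.0437), a call lost whichever array was left out (0.0554 to 0.129) and with quantile normalization or centred medians.

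The receptors that fell in this wider list were AXL and TYRO3, which bind GAS6. Their relative MERTK differed by 0.02 on the log2 scale (adjusted p = 0.863), and was picked out with its value known. AXL went from 12.08 ± 0.110 to 11.68 ± 0.133 (SD, n = 3), 1.31-fold lower (adjusted p = 0.0282), and TYRO3 from 6.95 ± 0.085 to 6.63 ± 0.067, 1.25-fold lower (adjusted p = 0.0161). AXL did not pass once DMSO 2 or 3, or PD 0332991 replicate 1 or 2, was left out (up to 0.0975), and TYRO3 did not without DMSO 2 (0.0515). With DMSO 2 left out, therefore, no receptor of this list fell, while 886 of 22375 genes did, against 1284 with every array. FGFR4, the fourth FGF receptor, had a change of 0.06 (adjusted p = 0.520), MST1R, a relative of MET, 0.16 (0.085), and DDR2, the collagen receptor related to DDR1, 0.02 (0.908), and none of them passed. MST1R passed (adjusted p = 0.0392) when the fit was limited to genes above the median level, where 3312 of 11187 genes passed.

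**Figure D3:**
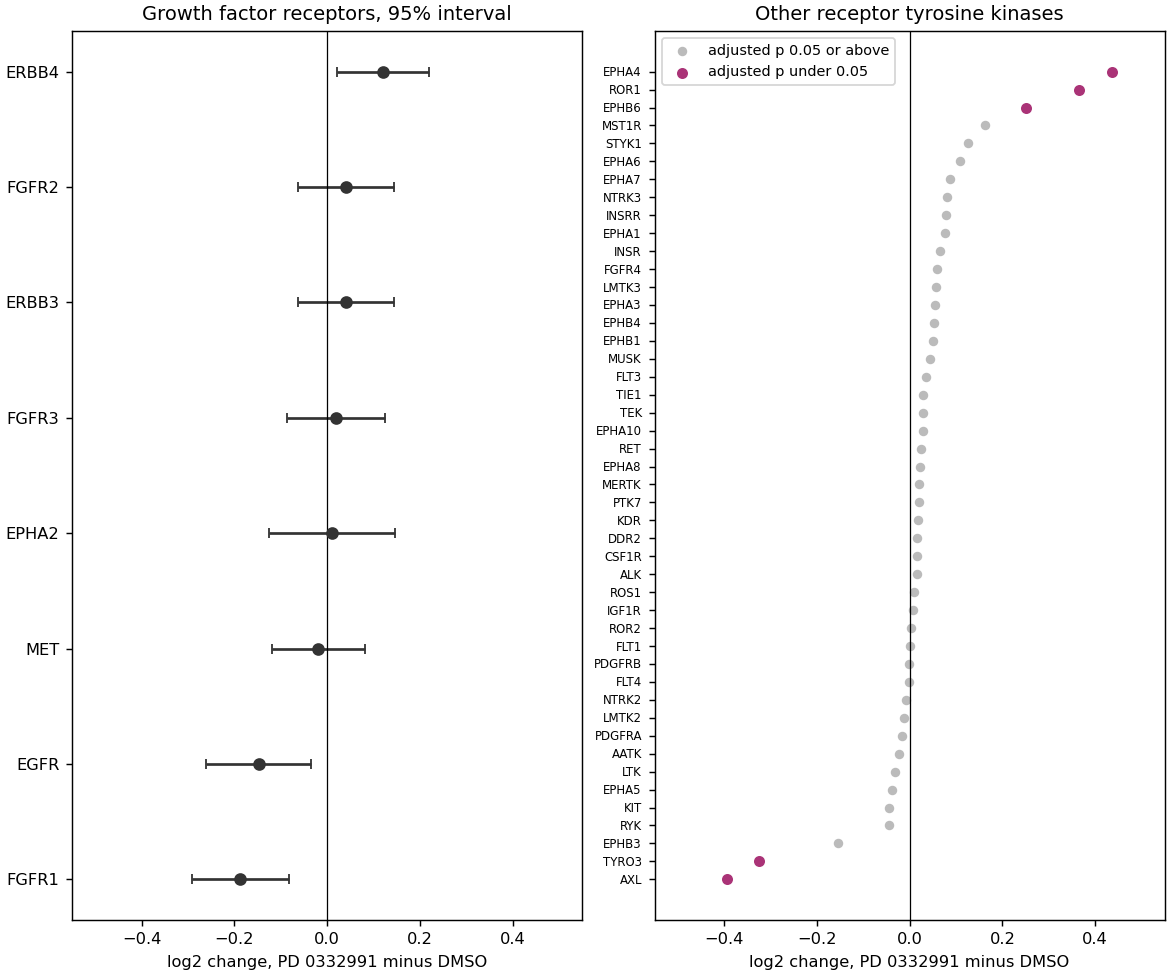
Log2 change (PD 0332991 minus DMSO) of the 8 receptors with 95% intervals (left) and of 46 other receptor tyrosine kinases (right), where purple marks an adjusted p under 0.05. All 8 receptors lie between -0.19 and 0.12, while EPHA4 (0.44) and ROR1 (0.37) are the highest and AXL (-0.39) the lowest in the right panel.

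Of 11 ligands of EGFR and its relatives, 10 were measured: 2 rose (5.57% of all genes did), none fell and the median change was 0.08. Epigen (EPGN), a ligand of EGFR, was at 7.77, 7.59 and 7.46 with DMSO and 8.02, 8.37 and 8.34 with PD 0332991. Both groups were spread and did not overlap, and EPGN rose by 0.64 ± 0.115 (SE), 1.56-fold (adjusted p = 0.0142). Transforming growth factor alpha (TGFA) was at 7.12, 7.07 and 7.20 with DMSO and 7.36, 7.32 and 7.47 with PD 0332991, and rose by 0.26 ± 0.059, 1.19-fold (adjusted p = 0.0363). EPGN did not pass without DMSO 2, PD 0332991 replicate 2 or PD 0332991 replicate 3 (up to 0.0539), and TGFA passed only as measured and without DMSO 3 among the leave-outs (up to 0.118). TGFA also did not pass with quantile normalization or centred medians. HBEGF, which is released by shedding, had a change of -0.05 (adjusted p = 0.696), epiregulin (EREG) 0.02 (0.856) and neuregulin 1 (NRG1), the ligand of ERBB3 and ERBB4, 0.09 (0.261). AREG was not analysed here.

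Of 18 FGF ligands none passed by limma in either direction (lowest adjusted p 0.192), against 11.3% of all genes. An unadjusted p under 0.05 was seen for 1 of them, against 24.0% of all genes, and the median change was 0.03. Among 11 co-receptors and binding proteins of these ligands, 2 rose and 1 fell (27.3%, against 11.3% of all genes). The syndecans SDC1 and SDC4, cell-surface heparan sulfate proteoglycans, went opposite ways. SDC1 was at 9.20, 9.13 and 8.90 with DMSO and 8.42, 8.42 and 8.35 with PD 0332991, and it fell by 0.68 ± 0.080 on the log2 scale, 1.604-fold (adjusted p = 0.0025). SDC4 was at 11.97, 11.94 and 11.90 with DMSO and 12.36, 12.24 and 12.25 with PD 0332991, and it rose by 0.35 ± 0.050, 1.27-fold (adjusted p = 0.00608). Both calls held whichever array was left out. FGFBP1, which frees FGFs from the matrix, rose by 0.30 (adjusted p = 0.0382). It did not pass without DMSO 1, DMSO 2, DMSO 3, PD 0332991 replicate 1 or PD 0332991 replicate 3 (up to 0.116), nor with centred medians.

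Around MET, none of 9 genes for its ligand, the ligand's activating proteases and their inhibitors passed by limma, against 11.3% of all genes. At an unadjusted p under 0.05 there were 2, a share near the 24.0% of all genes. These were the protease inhibitors SPINT1 (0.21, adjusted p = 0.0572) and SPINT2 (0.25, 0.0629), picked out after their values were seen. With the fit limited to genes above the median level 2 genes of the list passed, as did 3312 of 11187 genes in all. Of the list 1 passed with quantile normalization, with an intensity trend or without PD 0332991 replicate 3. Of 22375 genes, 2232, 2711 and 1857 passed in these settings, in that order. HGF had a change of 0.03 (adjusted p = 0.799), at a DMSO mean of 3.87. Of the 9 genes 2 lay above the median level of the genes tested, and detection was not tested. Of 8 ephrins 1 passed (12.5%, against 11.3% of all genes): EFNB3 rose by 0.23 (adjusted p = 0.0187). EFNA1, a ligand of EPHA2, had a change of 0.01 (0.931). The call of EFNB3 was lost once DMSO 2 or 3, or PD 0332991 replicate 1 or 3, was left out (up to 0.0724) and with centred medians. Collagens that can bind discoidin domain receptors had 3 of 13 measured members higher and 0 lower past the threshold (23.1% in all, against 11.3% of all genes, of which 5.57% higher), with a median change of 0.10. COL6A3 rose by 0.43 ± 0.074 (adjusted p = 0.0116), COL4A1 by 0.21 (0.0218) and COL1A1 by 0.19 (0.0439). COL6A3 passed with any array left out. COL1A1 passed with none left out and failed in every leave-out (0.0638 to 0.129), and COL4A1 passed only without PD 0332991 replicate 2 among them (up to 0.0811). COL4A1 and COL1A1 also failed with quantile normalization and with centred medians.

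Of 13 measured genes whose products cut receptors and ligands at the membrane, or act with or on such enzymes, 1 rose. That is 7.69%, against 11.3% of all genes passing in either direction and 5.57% higher. The 1 that rose was nicastrin (NCSTN), a subunit of the gamma-secretase that cleaves ERBB4 within the membrane. Its values were 8.70, 8.66 and 8.62 with DMSO and 9.01, 9.07 and 8.95 with PD 0332991. NCSTN rose by 0.35 ± 0.049, 1.27-fold (adjusted p = 0.00507), also with any array left out. ADAM17, the main sheddase of ERBB ligands, had a change of -0.10 (adjusted p = 0.323).

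**Figure D4:**
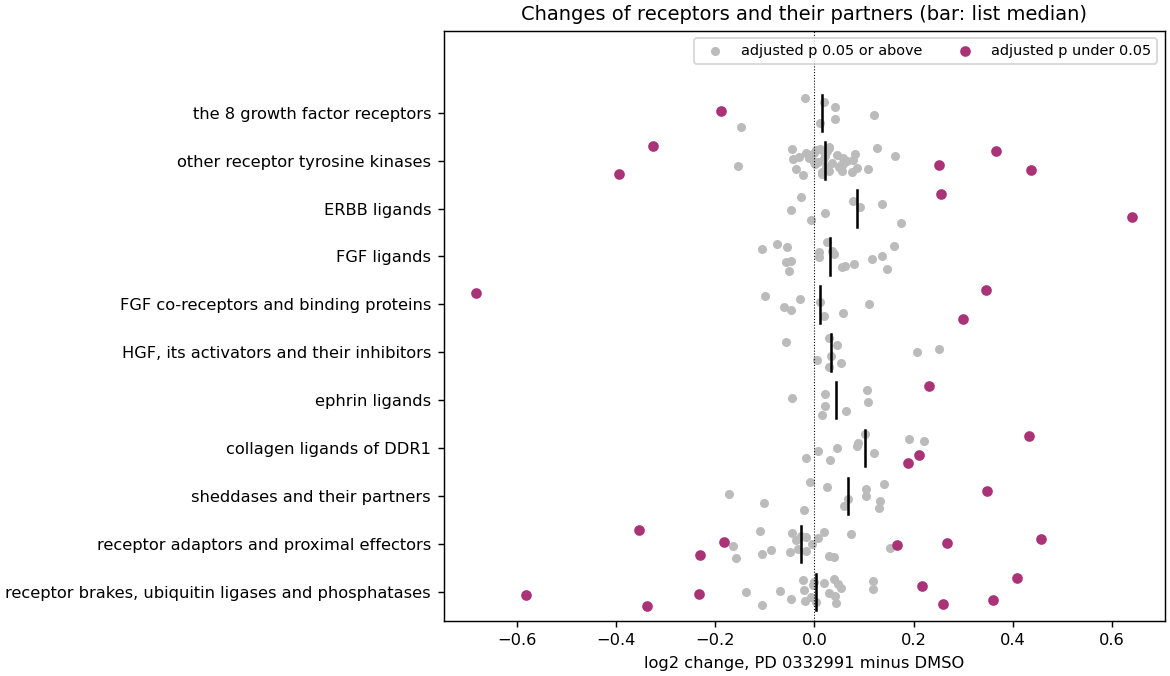
Log2 change (PD 0332991 minus DMSO) of every measured gene in the 8 receptors and 10 lists of related genes, with a bar at each list's median and purple points for an adjusted p under 0.05; vertical offsets within a list only separate the points. The list medians lie between -0.03 and 0.10, and the farthest points are SDC1 (-0.68) and EPGN (0.64).

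Adaptors and effectors next to the receptors passed in 6 of 25 cases (24.0%, against 11.3% of all genes). The calls were 3 higher and 3 lower, and the list had a median change of -0.03. Signals of 19 adaptors and effectors exceeded that of the median gene. A fit limited to such brighter genes passed 3312 of 11187, with 4 higher and 3 lower from this list. The part of signal level in the 24.0% was not tested. SHC1, which links phosphorylated receptors to GRB2 and RAS, was at 9.80, 9.77 and 9.77 with DMSO and 10.20, 10.26 and 10.25 with PD 0332991. Within each group the arrays almost coincided, and SHC1 rose by 0.46 ± 0.040 (SE), 1.37-fold (adjusted p = 0.000684). The SRC family kinase YES1 was at 13.11, 13.15 and 13.20 with DMSO and 12.83, 12.77 and 12.80 with PD 0332991, and fell by 0.35 ± 0.044 on the log2 scale, 1.28-fold (adjusted p = 0.00326). Both calls held with any array left out. PIK3R3, a regulatory subunit of phosphoinositide 3-kinase, rose by 0.27 (adjusted p = 0.0291), and the docking protein GAB2 fell by 0.23 (0.0376). PIK3R3 did not pass once DMSO 1 or 2, or PD 0332991 replicate 1 or 3, was left out (up to 0.0997), and GAB2 passed in the leave-outs only without DMSO 1 (up to 0.118). PIK3R3 also failed with centred medians and GAB2 with quantile normalization. In the leave-outs 1 or 2 members of this list rose and 1 or 2 fell. Of all 22375 genes, 716 to 815 rose and 886 to 1042 fell in them, against 1247 and 1284 with every array. GRB2 had a change of -0.02 (adjusted p = 0.864), and FRS2, the docking protein of FGF receptors, was not analysed here.

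Genes that restrain or recycle receptors passed in 7 of 27 cases (25.9%, against 11.3% of all genes). The calls were 4 higher and 3 lower, and the list had a median change of 0.00. Here 24 members had signals brighter than that of the median gene. When only brighter genes were fitted, 3312 of 11187 passed, with 4 higher and 3 lower from this list. What signal level contributes to the 25.9% was not tested. LRIG3, a relative of the ERBB inhibitor LRIG1, was at 5.71, 5.62 and 5.78 with DMSO and 4.96, 5.22 and 5.17 with PD 0332991. The treated arrays were all lower, PD 0332991 replicate 1 most, and LRIG3 fell by 0.58 ± 0.080 on the log2 scale, 1.497-fold (adjusted p = 0.00468). LRIG1 had a change of -0.0063 (adjusted p = 0.955). ERRFI1, a feedback inhibitor of the EGFR kinase, was at 15.54, 15.46 and 15.35 with DMSO and 15.72, 15.77 and 15.93 with PD 0332991, and rose by 0.36 ± 0.074, 1.28-fold (adjusted p = 0.0232). CBLB, a ubiquitin ligase that marks active receptors for degradation, rose by 0.26 (adjusted p = 0.0148), and caveolin 1 (CAV1), of membrane caveolae, fell by 0.34 (0.02). The call of LRIG3 held with any array left out. ERRFI1 did not pass once DMSO 2 or 3, or PD 0332991 replicate 2 or 3, was left out (up to 0.0744) or with centred medians. CBLB did not pass once DMSO 2 or 3, or PD 0332991 replicate 1 or 2, was left out (up to 0.0577), and CAV1 once DMSO 1 or 2, or PD 0332991 replicate 1 or 2, was left out (up to 0.0709). Over the leave-outs 0 to 2 members of this list rose and 1 or 2 fell. Of all 22375 genes, 716 to 815 rose and 886 to 1042 fell in the leave-outs, against 1247 and 1284 with every array.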

How the data were processed

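The deposited values, 1 for each transcript cluster on each array, are taken as log2 from their range (2.04 to 19.93), since the log base is not stated. Per the submitters' processing notes the software was Affymetrix Expression Console; its version, background correction and normalization are not given in the sources used here. The table holds 65535 clusters, and genes without a row were not analysed. Symbols came from the platform annotation: 22685 clusters carried 1 symbol, 1385 several and 41465 none. Of the clusters with 1 symbol, 20487 were matched by Entrez identifier and took the symbol of the reference. For 296 genes with several clusters the brightest was kept, leaving 22375 genes, with no filter on level and no further normalization. The comparison used limma 3.58.1 under R 4.3.3 (two-sided, Benjamini-Hochberg over all genes, threshold 0.05); "rose" and "fell" mean past it. The fit was tested on simulated data. Pairs of receptors were compared with linear-model intervals and exact permutation tests. Members and gene lists were chosen with earlier results of these data known. Named genes were the 8 receptors, a few chosen for their role, and in each list all members past the threshold up to 5, otherwise the 4 with the smallest p, and the 2 genes best correlated with each receptor past it. Alternatives were a replicate term, quantile normalization, centred array medians, genes above the median level, all clusters, mean of clusters, an intensity trend and leaving out each array.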

Additional observations from a re-analysis of the deposited data

How the results depend on the processing

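The number of genes past the threshold, 2531, was 984 when all 65535 clusters entered the fit and the adjustment. It was 1602 to 1857 with an array left out, and over the other settings it ran from 1740 to 3312. The highest count came from the fit of the 11187 genes above the median level. The count of receptors lower with PD 0332991, 1 as reported, was 0 with the replicate number as a block, with quantile normalization and with all clusters, and 0 in every leave-out (0 to 0); the count higher was 0 throughout. With the replicate block FGFR1 kept its change of -0.19 with an adjusted p = 0.0992, and 1740 genes passed. Deviations from the group means of arrays with the same replicate number correlated at 0.022, -0.007 and 0.037 for numbers 1, 2 and 3. No shared effect was seen, but this cannot tell whether the arrays were paired when grown or processed. The receptors other than FGFR1 stayed above the threshold under every alternative run; ERBB3, ERBB4, FGFR2 and FGFR3 were not in the fit of genes above the median level. The difference FGFR2 minus FGFR3 ran from -0.0179, without DMSO 3, to 0.0459 over the leave-outs. Of 24 receptor pathway genes named as past the threshold, FGFR1 included, none changed direction, 18 passed with quantile normalization, 16 with centred medians, 13 with the replicate block and 8 with all clusters. Those past it in all 13 alternatives were 8: EPHA4, ROR1, SDC1, SDC4, NCSTN, SHC1, YES1 and LRIG3. The leave-outs use fewer samples, and the fit of all clusters has more rows in both the fit and the adjustment. Why calls were lost was not tested for any setting.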

Other observations

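The clusters that carry a receptor symbol beside a microRNA symbol were read in the fit of all 65535 clusters, and which transcript they report was not resolved. The cluster with ERBB2 and MIR4728 was at 5.78, 5.84 and 5.81 with DMSO and at 5.92, 6.03 and 6.02 with PD 0332991. The treated arrays were all higher, and the change was 0.18 ± 0.059 (SE), 1.13-fold, with a limma adjusted p = 0.261 over all clusters. The cluster with DDR1 and MIR4640 was at 5.68, 5.75 and 5.79 with DMSO and at 5.86, 5.82 and 5.88 with PD 0332991. Its groups did not overlap either, with a change of 0.11 ± 0.058 and an adjusted p = 0.497. Of all genes tested, 29.9% did not overlap between the groups, and the share over all clusters was not computed.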
